A study of Mus musculus with 6 samples.

Results

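Interferon-stimulated genes are the 44 named genes of this account, chosen by symbol as genes that type I or type II interferon is known to induce, out of 23238 gene symbols counted in mouse lung. All 44 were found in the tables. They were read in lung tissue of wild-type (WT) mice that had received PM, labelled "i.t.", and of WT mice that had received the vehicle PBS (phosphate-buffered saline) by the same labelled route. The series title calls the exposure chronic and names the lung, and the comparison asks how gene expression differs after it. The labels used here give no dose, duration, strain, sex or age, do not spell out PM, and do not say whether libraries came from separate mice, so every p-value reflects no more than the spread among these libraries, which may be technical. Each group has 3 samples, but the table of PBS replicate 2 matched that of PBS replicate 1 in each of 23282 entries, less than sampling noise, and the pair counts as 1 library. The comparison is therefore of 3 PM libraries with 2 PBS libraries, PBS replicates 1 and 3.

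Interferons are secreted proteins that bind receptors on the cell surface and, through JAK kinases and STAT proteins, switch on a shared set of genes. Type I and type III interferons act mainly through the transcription factor complex ISGF3, which binds the interferon-stimulated response element (ISRE). Type II interferon, interferon gamma, acts mainly through the gamma-activated site (GAS). In the lung, epithelial cells and macrophages respond strongly to interferon during viral infection, and the induced proteins bind foreign nucleic acid, block viral growth, load peptides on MHC class I and attract T cells.

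The members were chosen as interferon-induced genes, and the regulatory words themselves stand in many of their promoters. RefSeq promoter windows (GRCm38.p6, 250 bases before to 50 after a start, 300 in all) were found for 34 of the 44 members. The ISRE word GAAANNGAAA, searched on both strands, stood in a window of 18 of these 34 genes, or 52.9%, against 3.83% of 10608 tested genes with a window and 3.44% of all 32851 windows. The GAS word TTCNNNGAA, which reads the same on both strands, stood in 9 of 34, or 26.5%, against 8.48% of tested genes and 8.30% of all windows. By role, the ISRE word was found for 5 of 5 guanylate-binding and immunity-related GTPases, 8 of 15 antiviral effectors and 2 of 2 nucleic acid sensors with a window, and for 0 of 3 antigen processing genes. The 2 words overlapped in the window of Bst2. In the following windows, each read on its gene's own strand, capitals mark the ISRE word, or in Irf1 the GAS word. Isg15 (chr4:156200769-156201068, minus strand), Ifit1 (chr19:34640639-34640938, plus), Rsad2 (chr12:26456403-26456702, minus) and Irgm1 (chr11:48871371-48871670, minus) are genes 3.50-fold to 6.81-fold higher in PM replicate 2 than in the other PM libraries. Ifih1 (chr2:62646206-62646505, minus) carries the word but hardly differed, and Irf1 (chr11:53769764-53770063, plus) has the GAS word and no ISRE word in this window. Cxcl9, Ifi44 and Oasl1, whose windows are not shown and lack the ISRE word, were 6.52-fold to 10.1-fold higher in PM replicate 2.
Isg15: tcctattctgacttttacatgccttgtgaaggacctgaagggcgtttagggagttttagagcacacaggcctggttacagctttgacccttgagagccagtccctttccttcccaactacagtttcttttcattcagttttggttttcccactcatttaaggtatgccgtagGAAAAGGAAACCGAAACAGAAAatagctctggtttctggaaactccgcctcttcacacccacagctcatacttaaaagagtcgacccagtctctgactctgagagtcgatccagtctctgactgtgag
Ifit1: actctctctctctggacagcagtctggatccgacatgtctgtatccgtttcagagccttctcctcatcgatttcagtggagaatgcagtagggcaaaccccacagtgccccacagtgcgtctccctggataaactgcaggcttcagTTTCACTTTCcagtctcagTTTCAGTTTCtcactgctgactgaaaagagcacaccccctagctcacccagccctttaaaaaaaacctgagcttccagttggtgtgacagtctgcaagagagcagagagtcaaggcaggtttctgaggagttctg
Rsad2: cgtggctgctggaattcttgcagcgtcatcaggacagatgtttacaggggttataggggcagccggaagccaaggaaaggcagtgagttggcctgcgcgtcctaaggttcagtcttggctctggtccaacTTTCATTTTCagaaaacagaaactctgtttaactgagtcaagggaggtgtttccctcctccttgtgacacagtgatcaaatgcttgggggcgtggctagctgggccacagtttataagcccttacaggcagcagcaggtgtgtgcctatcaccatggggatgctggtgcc
Irgm1: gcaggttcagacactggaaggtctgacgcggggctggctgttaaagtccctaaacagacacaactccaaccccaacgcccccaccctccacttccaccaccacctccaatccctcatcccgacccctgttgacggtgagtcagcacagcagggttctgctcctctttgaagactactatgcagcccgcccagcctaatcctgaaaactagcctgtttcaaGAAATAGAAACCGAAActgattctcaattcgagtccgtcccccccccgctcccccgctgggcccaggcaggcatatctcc
Ifih1: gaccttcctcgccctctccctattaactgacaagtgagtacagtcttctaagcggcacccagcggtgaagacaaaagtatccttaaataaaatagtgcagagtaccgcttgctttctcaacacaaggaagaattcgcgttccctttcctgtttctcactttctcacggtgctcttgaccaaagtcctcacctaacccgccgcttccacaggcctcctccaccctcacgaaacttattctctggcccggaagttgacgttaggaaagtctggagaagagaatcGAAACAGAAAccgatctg
Irf1: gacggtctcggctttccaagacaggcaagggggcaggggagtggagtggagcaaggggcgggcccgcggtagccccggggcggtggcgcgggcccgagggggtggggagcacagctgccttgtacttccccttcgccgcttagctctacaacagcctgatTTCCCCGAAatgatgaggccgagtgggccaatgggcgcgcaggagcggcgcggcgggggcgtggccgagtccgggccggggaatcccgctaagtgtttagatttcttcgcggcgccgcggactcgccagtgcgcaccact
In Isg15 the 3 overlapping ISRE words began 78 bases before the start, in Ifit1 the first of 2 began 104 bases before it, in Rsad2 120 and in Irgm1 30 bases before it. Counted the same way, in bases before the start, the word of Ifih1 began at -32, which lies after the start. A match is a string of letters and no measure of binding. A window without one says only that these letters are not in it.

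Total counts were 7410200 to 8798953 in PM libraries and 7660937 to 8827202 in PBS libraries, so 3 counts, the most that a count of 0 allows, correspond to 0.348 to 0.430 CPM (counts scaled to a library total of 1000000, adjusted by the trimmed mean of M values, TMM), for counting error only. Rn45s, the ribosomal RNA precursor, took 15.7% to 25.4% of counts in PM and 16.3% to 18.2% in PBS, with the top value in PM replicate 2. Haemoglobin genes took 0.632% to 1.82% in PM and 1.60% to 5.41% in PBS. Lung epithelial markers (8 genes) summed to 40700, 43400 and 55000 CPM in PM replicates 1, 2 and 3, against 44800 and 41600 CPM in PBS. Among them, surfactant protein gene Sftpc stood at 9230 to 12200 CPM in PM and 9540 to 11300 CPM in PBS. Foxj1, the lowest of the list, stood at 30.2, 55 and 48 CPM in PM, against 19.8 and 32.6 CPM in PBS. These libraries are of whole tissue, in which more cells of a type and more RNA per cell cannot be told apart.

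Most interferon-stimulated genes were high in PM replicate 2. By their median, PM replicate 1 lay slightly above PBS and PM replicate 3 was level with it. PM replicate 2 held the highest value of the 5 libraries for 42 of 44 members, against 26.5% of the 14057 genes tested. The exceptions were Ifi35, highest in PM replicate 3 as were 18.9% of tested genes, and Ifih1, highest in PBS replicate 1. Relative to the PBS mean on a log2(CPM + 0.5) scale, the median over the 44 members was 0.19, 1.50 and -0.01 in PM replicates 1, 2 and 3, and that over all tested genes was 0.00 in each. PM replicate 2 lay at least 2-fold above the PBS mean for 30 members, where 6.60% of tested genes did. In PM replicate 1 these were 4 members, Mx1, Mx2, Ifi44 and Rtp4 (3.61% of tested genes), and in PM replicate 3 only Mx2 of the 44 (3.22%).

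**Figure D1:**
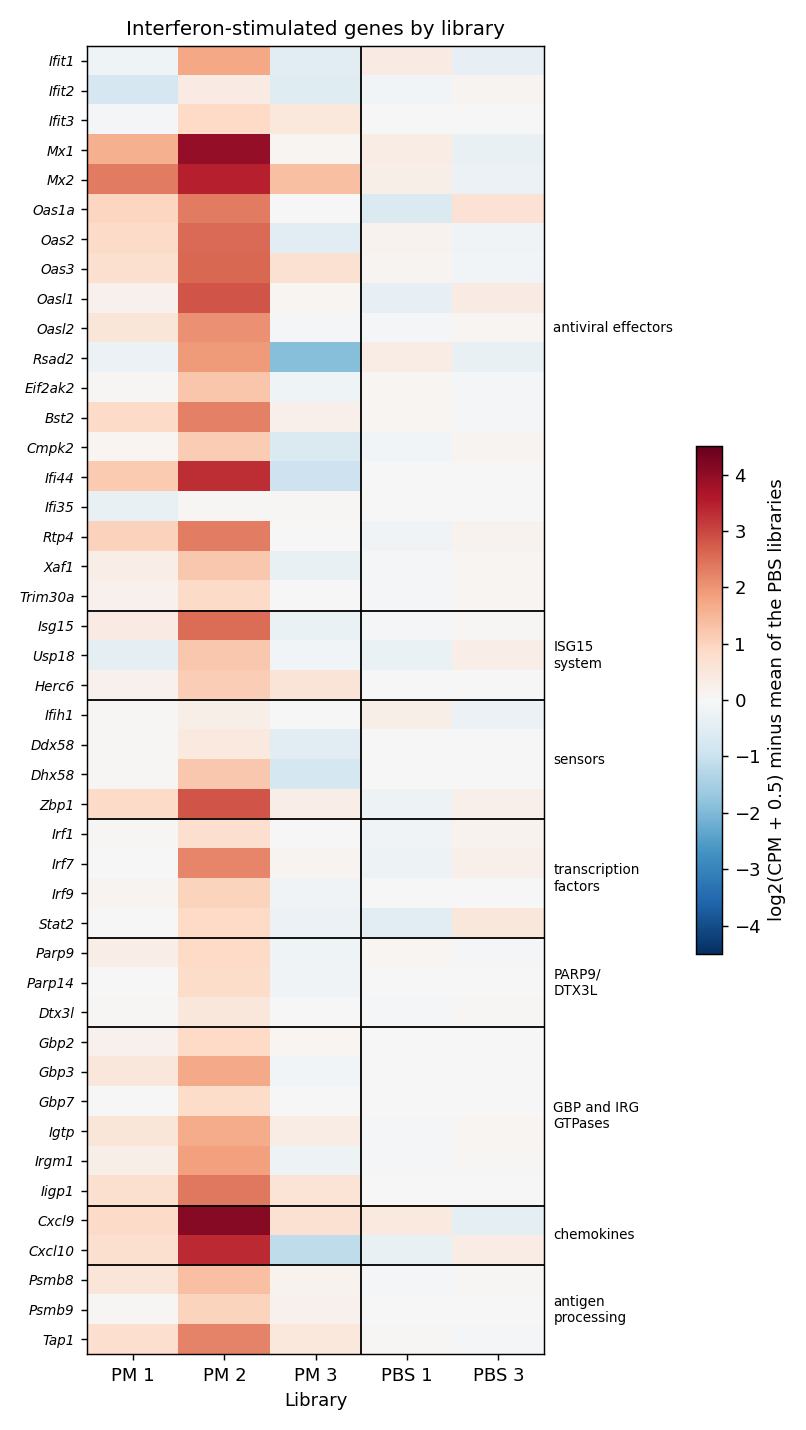
Each row is 1 of the 44 members and each column a distinct library; colour is log2(CPM + 0.5) minus the mean of the PBS libraries, and lines part the groups and the role classes. The column of PM replicate 2 is red for nearly every member, with a median of 1.50, whereas the medians of PM replicates 1 and 3 are 0.19 and -0.01.

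Summed over the members, levels came to 1302, 2717 and 1123 CPM in PM replicates 1, 2 and 3, against 1091 and 1136 CPM in PBS replicates 1 and 3. The sum of PM replicate 3 thus lay between those of PBS, and that of PM replicate 1 was somewhat above both. PM replicate 2 was above both PBS libraries for 43 of 44 members (39.7% of tested genes) and below both for 0 (39.5%). PM replicate 1 was above both for 30 (37.2%) and PM replicate 3 for 14 (36.4%). PM replicate 1 was below both for 4 (37.2%) and PM replicate 3 for 17 (36.4%). The PBS libraries resembled each other, with a median difference between them of 0.00 over the 44 and quartiles of -0.18 and 0.14 on the log2 scale.

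As a group comparison, no member passed the test. Of 43 members tested, 0 rose and 0 fell by the two-sided quasi-likelihood test of edgeR at a Benjamini-Hochberg threshold of 0.05, against 0.228% of the 14057 genes tested, 0.142% that rose and 0.0854% that fell. Oasl1 was not tested because its counts were too low outside PM replicate 2. At an unadjusted p below 0.05, 3 members were higher (Mx2, Oas3 and Herc6; 7.26% of tested genes were) and 0 lower (6.05%). DESeq2 called 1 member, Mx2 (2.59% of the genes it tested). Fitted log2 folds were above 0 for 41 of 43 members, against 51.1% of tested genes, with a median of 0.66 and a range from -0.25 to 3.57. The median over all tested genes was 0.01. Every PM value exceeded both PBS values for 12 of 43, against 15.5% of tested genes, and lay under both for 0, against 16.1%.

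Without PM replicate 2 the median log2 fold of the members was 0.08, with 28 of 41 tested above 0 and 0 called, against 0.762% of the genes tested in that fit. At an unadjusted p below 0.05, 4 members were then higher (Mx2, Iigp1, Psmb8 and Tap1) and 1 lower (Ifit2), where 6.36% of 13912 tested genes were higher and 5.46% lower. Leaving out PM replicate 1 put 6 of at most 44 members at an unadjusted p below 0.05. Of all genes tested in that fit, 11.4% were. Leaving out PM replicate 3 put 18 of at most 44 members there, where 18.8% of all genes were. Leaving out PBS replicate 1 or PBS replicate 3 put 1 there, against 7.92% and 6.75% of all genes. The shares over all genes thus moved with the library left out, and the counts of members are not read as a result on their own. A fit with 1 PBS library assumes that it varies like the PM libraries.

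**Figure D2:**
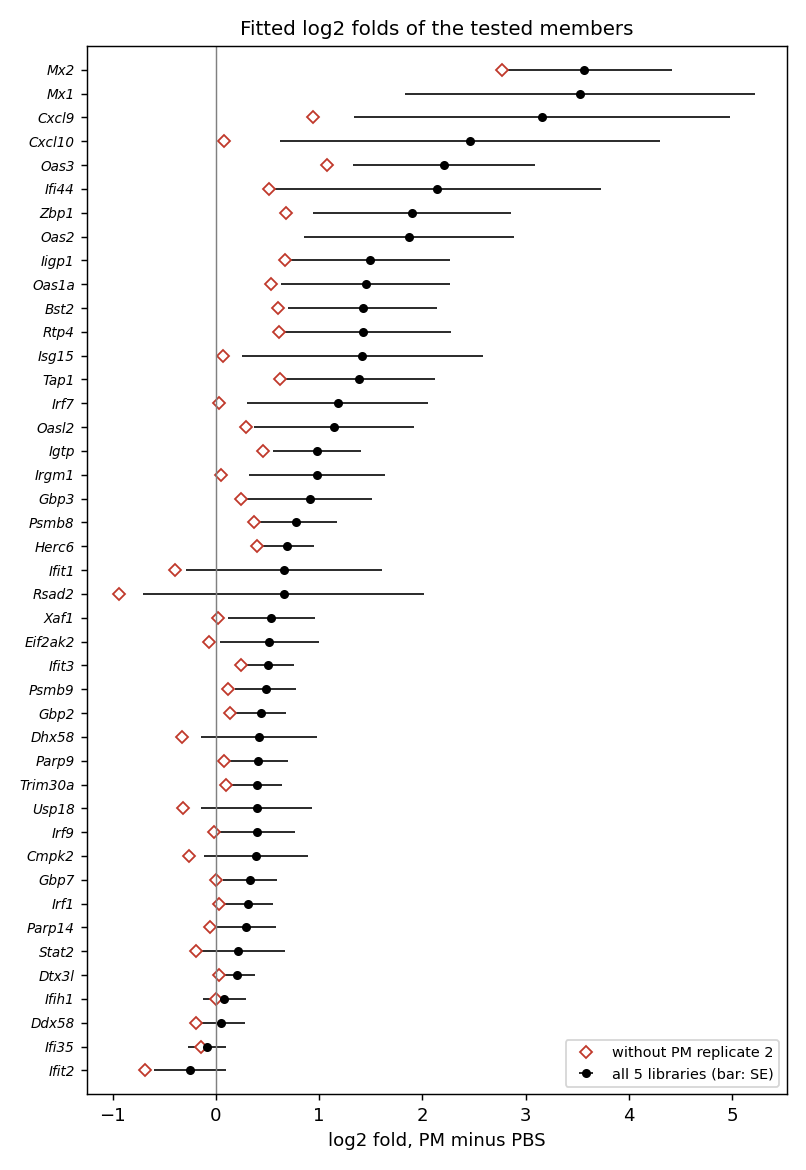
Points are fitted log2 folds, PM minus PBS, of the 43 tested members with bars of 1 SE, and open diamonds the same without PM replicate 2 where still tested. Folds run from -0.25 to 3.57 with all 5 libraries, and most diamonds lie nearer 0, with a median of 0.08.

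The antiviral effectors had log2 folds from -0.25 to 3.57. Mx2, an interferon-induced GTPase of the dynamin family, stood at 4.09, 9.60 and 1.77 CPM in PM replicates 1, 2 and 3, against 0.579 and 0.247 CPM in PBS. The means were 5.15 ± 4.02 CPM in PM (SD, n = 3) and 0.413 ± 0.235 CPM in PBS (SD, n = 2). All PM libraries were above both PBS libraries, with a log2 fold of 3.57 ± 0.85 SE (adjusted p = 0.107, edgeR, Benjamini-Hochberg). Both PBS libraries together held only 7 counts of it, so the size of the fold is uncertain. DESeq2 gave it a Benjamini-Hochberg adjusted p of 0.00387. With PM replicate 3 left out, the edgeR adjusted p (Benjamini-Hochberg) was 0.0156. Leaving out PM replicate 2 gave a log2 fold of 2.78 and an adjusted p of 0.145 (edgeR, Benjamini-Hochberg). Mx1, the neighbouring nuclear GTPase that most laboratory strains carry in an inactive form, stood at 2.34, 14.3 and 0.504 CPM in PM, against 0.695 and 0.247 CPM in PBS. Here PM replicate 3 lay within the PBS range, and the log2 fold was 3.53 ± 1.69 SE (adjusted p = 0.465, edgeR, Benjamini-Hochberg). Mx1 and Mx2 lie on chromosome 16, and 4.77% of the 50-base words of the Mx1 transcript also stand in Mx2, so few reads could be divided between them.

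Oligoadenylate synthetases make a short RNA messenger that activates RNase L. Oas3, on chromosome 5, stood at 1.29, 6.02 and 1.26 CPM in PM, against 0.695 and 0.494 CPM in PBS. The groups did not overlap, yet PM replicates 1 and 3 held only 11 and 10 counts, and its log2 fold was 2.21 ± 0.88 SE (adjusted p = 0.305, edgeR, Benjamini-Hochberg). Without PM replicate 2 it was 1.08. Oas1a and Oas2 were 3.37-fold and 4.64-fold higher in PM replicate 2 than in the other PM libraries. Of the 50-base words of Oas1a, 57.6% also stand in Oas1g, so its counts are uncertain. Oasl1, which in the mouse restrains translation of Irf7, had 5, 44 and 4 counts in PM and 2 and 6 in PBS. Oasl2, a relative of the same enzymes, was 3.40-fold higher in PM replicate 2 than in the others.

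Several other effectors were 3.24-fold to 7.22-fold higher in PM replicate 2 than in the other PM libraries. Ifi44, whose biochemical role is poorly defined, stood at 22.7, 102 and 4.79 CPM in PM, against 9.73 and 9.63 CPM in PBS. PM replicate 1 was above PBS and PM replicate 3 below it. Rsad2, viperin, which makes an antiviral nucleotide, stood at 10.5, 49.0 and 3.03 CPM in PM, against 16.2 and 9.88 CPM in PBS. Its log2 fold was 0.66 with all libraries and -0.94 without PM replicate 2, so its direction turned without that library. Rtp4, a chaperone of receptors that in mice dampens interferon responses, stood at 32.4, 79.0 and 15.5 CPM in PM, against 14.1 and 17.3 CPM in PBS, and PM replicate 3 lay within the PBS range. Bst2, tetherin, which holds budding virus on the cell, stood at 13.9, 38.1 and 8.95 CPM in PM, against 8.0 and 7.04 CPM in PBS, with all PM libraries above PBS.

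The IFIT genes, whose proteins bind viral RNA, differed among themselves, with ratios of PM replicate 2 to the other PM libraries from 1.59 to 4.19. Ifit3 stood at 45.8, 89.6 and 66.5 CPM in PM, against 48.1 and 46.6 CPM in PBS. The log2 fold was 0.50 ± 0.26 SE (adjusted p = 0.456, edgeR, Benjamini-Hochberg). More than 1 gene may share these reads, since 51.2% of the 50-base words of Ifit3 also stand in Ifit3b. Ifit1 was 4.19-fold higher in PM replicate 2 than in the other PM libraries, which at 14.7 and 11.7 CPM lay beside PBS values of 22.0 and 12.8 CPM. Ifit2 stood at 5.96, 13.5 and 6.94 CPM in PM, against 9.50 and 11.2 CPM in PBS, so PM replicates 1 and 3 were below both PBS libraries.

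The remaining effectors had ratios from 1.13 to 2.63. Eif2ak2 (PKR, a kinase that halts translation on sensing double-stranded RNA), Cmpk2, a mitochondrial nucleotide kinase, and Xaf1, a promoter of cell death, were 2.26-fold to 2.63-fold higher in PM replicate 2 than in the other PM libraries. Trim30a, a mouse TRIM protein that dampens NF-kappa-B signalling, stood at 45.5, 72.9 and 40.2 CPM in PM, against 37.9 and 42.0 CPM in PBS. Ifi35, a partner of Nmi, stood at 19.3, 25.4 and 25.5 CPM in PM, against 24.6 and 24.8 CPM in PBS. Its ratio of PM replicate 2 to the other PM libraries, 1.13, was the lowest of the 44, and its log2 fold was -0.08 ± 0.18 SE.

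**Figure D3:**
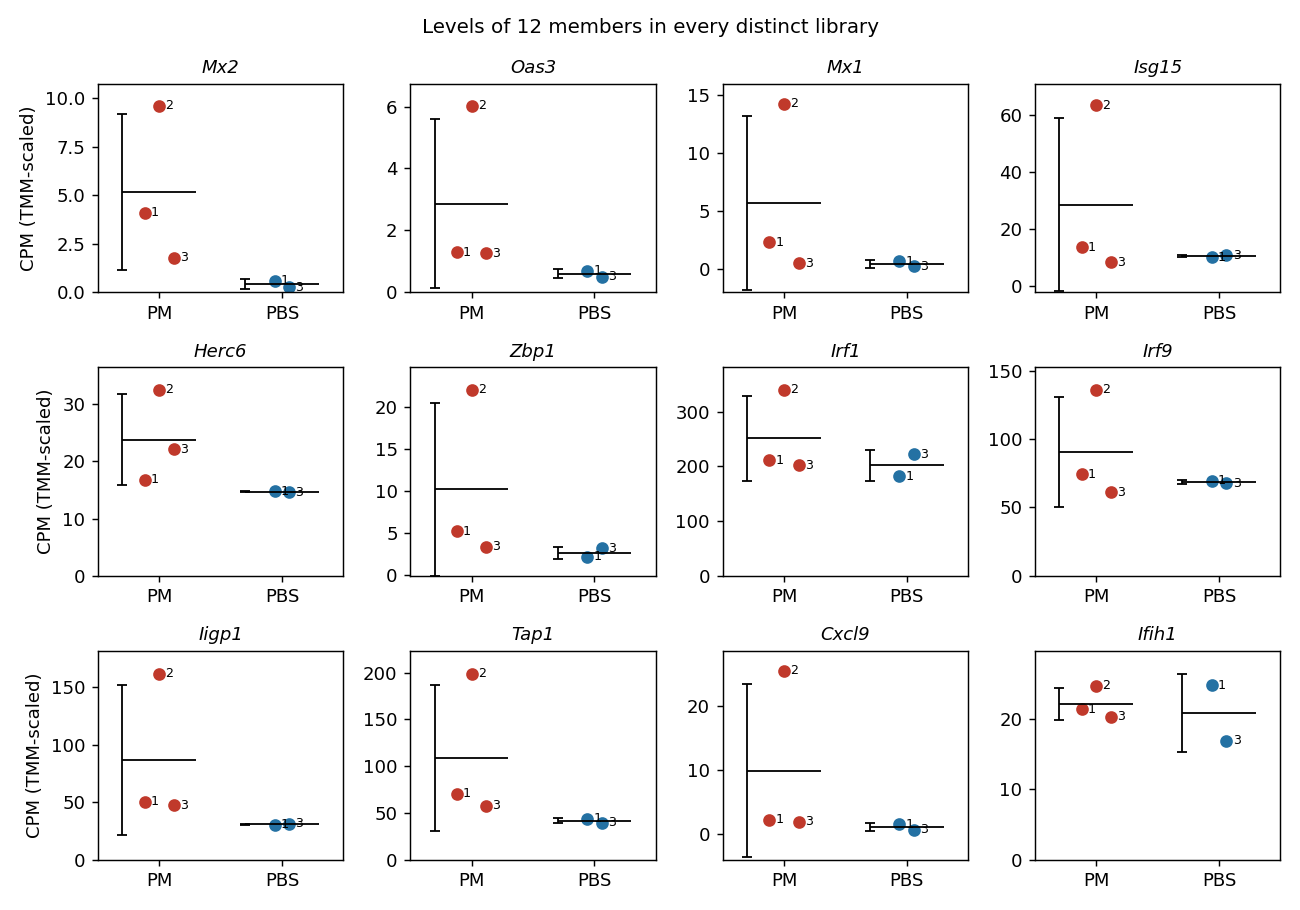
Points are TMM-scaled CPM of 12 members in each distinct library, numbered by replicate, with horizontal lines at the group means and bars of 1 SD drawn at their left ends (3 PM and 2 PBS libraries). PM replicate 2 is the top point in every panel except that of Ifih1, where PBS replicate 1 at 24.8 CPM just exceeds it.

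In the ISG15 system, a ubiquitin-like tag is joined to proteins and removed again. Isg15, the tag, stood at 13.6, 63.3 and 8.45 CPM in PM, against 10.2 and 10.9 CPM in PBS. The means were 28.5 ± 30.3 CPM in PM (SD, n = 3) and 10.5 ± 0.473 CPM in PBS (SD, n = 2). PM replicate 3 was below both PBS libraries and PM replicate 2 was 5.55-fold above the other PM libraries. The log2 fold was 1.42 ± 1.17 SE with all libraries and 0.07 without PM replicate 2. Herc6, the main ligase for ISG15 in the mouse, stood at 16.8, 32.5 and 22.1 CPM in PM, against 14.8 and 14.6 CPM in PBS. All PM libraries exceeded both PBS libraries, with a log2 fold of 0.69 ± 0.26 SE (adjusted p = 0.287, edgeR, Benjamini-Hochberg) and of 0.40 without PM replicate 2. Usp18, which removes ISG15 and blocks the type I receptor, was 2.83-fold higher in PM replicate 2 than in the other PM libraries, both of which lay at or below 6.94 CPM beside PBS values of 6.14 and 9.38 CPM.

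The sensors of foreign nucleic acid differed among themselves. Zbp1, a sensor of Z-form nucleic acid that can start necroptosis, stood at 5.26, 22.1 and 3.40 CPM in PM, against 2.20 and 3.21 CPM in PBS. The groups did not overlap, yet PM replicate 3 held 27 counts and PBS replicate 3 held 26, within counting error. Dhx58 (LGP2), a regulator of the RNA sensors, stood at 4.44, 10.5 and 2.27 CPM in PM, against 4.29 and 4.20 CPM in PBS. Of the RNA sensors proper, Ddx58 (RIG-I) stood at 42.8, 56.3 and 29.4 CPM in PM, against 42.1 and 40.7 CPM in PBS. Ifih1 (MDA5) stood at 21.4, 24.7 and 20.3 CPM in PM, against 24.8 and 16.9 CPM in PBS. Their log2 folds were 0.05 ± 0.24 and 0.08 ± 0.21 SE, within the spread between libraries.

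All 4 transcription factors were highest in PM replicate 2, by 1.65-fold to 4.40-fold over the other PM libraries, and the order of the other libraries differed between them. Irf1, an early factor downstream of interferon gamma, had the highest level of the 44 when scaled by exon length, with a mean of 58.2 CPM per kilobase over the 5 libraries. It stood at 211, 340 and 202 CPM in PM, against 182 and 222 CPM in PBS, so that PM replicates 1 and 3 lay within the PBS range. Irf9, the DNA-binding part of ISGF3, stood at 74.4, 136 and 61.0 CPM in PM, against 69.5 and 67.5 CPM in PBS. Stat2, its partner, was 1.99-fold higher in PM replicate 2 than in the other PM libraries, and its PBS libraries differed from each other, at 15.6 and 31.7 CPM. Irf7, which amplifies type I interferon production, stood at 5.14, 25.5 and 5.67 CPM in PM, against 4.40 and 6.17 CPM in PBS. None of these 4 passed the test, with log2 folds from 0.22 to 1.18.

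Parp9 and Dtx3l form a complex that modifies histones and viral proteins, and Parp14 is a related ADP-ribosyltransferase. Parp9 stood at 45.1, 68.4 and 31.9 CPM in PM, against 38.7 and 34.3 CPM in PBS. Parp14 stood at 64.7, 113 and 57.5 CPM in PM, against 64.0 and 63.5 CPM in PBS. Dtx3l stood at 38.8, 52.6 and 36.6 CPM in PM, against 35.8 and 38.2 CPM in PBS. All were highest in PM replicate 2, by 1.39-fold to 1.84-fold over the other PM libraries, and overlapped between groups. Parp9 and Dtx3l lie on opposite strands of chromosome 16 with 9.40% of the exon bases of Parp9 shared, and whether reads were counted by strand is not given in the sources used here.

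**Figure D4:**
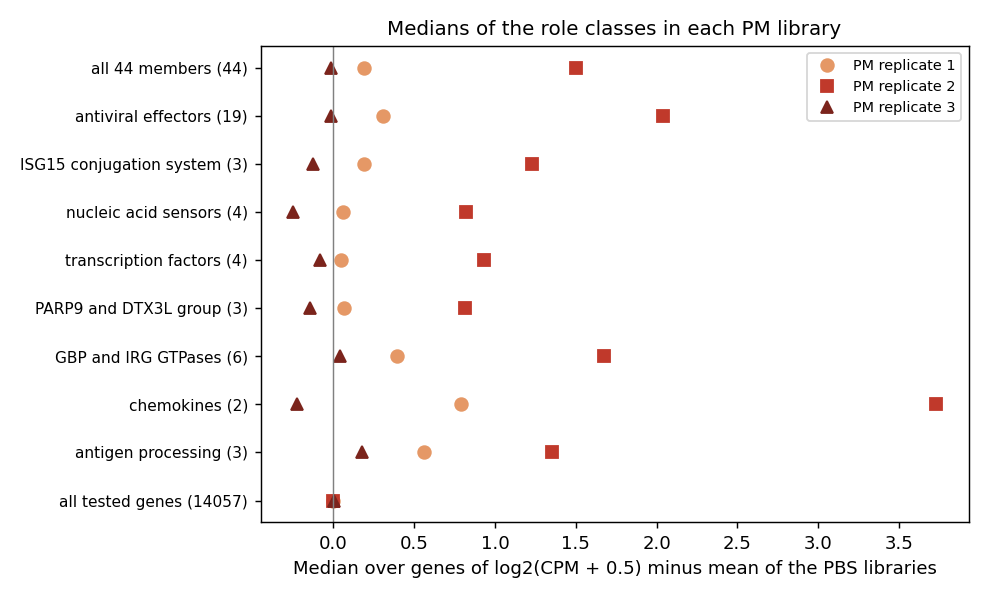
Symbols are medians over the genes of each role class (gene numbers in brackets) of log2(CPM + 0.5) minus the mean of the PBS libraries, for PM replicates 1, 2 and 3. The square of PM replicate 2 lies right of the others in every class, from 0.82 for the PARP9 and DTX3L group and the sensors to 3.73 for the 2 chemokines, and all tested genes lie at 0.00.

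The guanylate-binding proteins (GBPs) and immunity-related GTPases (IRGs), which attack vacuoles that hold microbes and respond mainly to interferon gamma, were higher in PM replicate 2 by 1.69-fold to 3.50-fold over the other PM libraries. Iigp1 stood at 50.4, 162 and 47.5 CPM in PM, against 30.2 and 31.2 CPM in PBS. The means were 86.7 ± 65.4 CPM in PM (SD, n = 3) and 30.7 ± 0.703 CPM in PBS (SD, n = 2). PM replicates 1 and 3 were close to each other and above both PBS libraries. With all libraries its log2 fold was 1.49 ± 0.78 SE (adjusted p = 0.531, edgeR, Benjamini-Hochberg), and without PM replicate 2 it was 0.67 (adjusted p = 0.0710, edgeR, Benjamini-Hochberg). Igtp, another of these GTPases, stood at 21.3, 46.9 and 18.5 CPM in PM, against 13.8 and 15.3 CPM in PBS, again with no overlap. Gbp2 did not overlap either, while Gbp7 stood at 68.5, 120 and 68.1 CPM in PM, against 67.6 and 68.5 CPM in PBS. PM replicates 1 and 3 of Gbp7 were thus level with PBS. Gbp3 and Irgm1 were 2.76-fold and 3.50-fold higher in PM replicate 2 than in the other PM libraries.

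The T cell attractants Cxcl9 and Cxcl10, ligands of CXCR3, had the highest ratios of PM replicate 2 to the other PM libraries, 10.1-fold and 9.71-fold, a feature for which they were picked to be shown. Cxcl9 stood at 2.22, 25.4 and 1.89 CPM in PM, against 1.51 and 0.617 CPM in PBS. Cxcl10 stood at 1.75, 13.5 and 0.126 CPM in PM, against 0.579 and 1.23 CPM in PBS, and in PM replicate 3 it had a single count. Both were above both PBS libraries in PM replicate 1, while in PM replicate 3 Cxcl9 was above them and Cxcl10 below. Their log2 folds were 3.16 ± 1.82 and 2.46 ± 1.84 SE with all libraries and 0.94 and 0.08 without PM replicate 2.

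All 3 antigen processing genes had every PM library above every PBS library, as 15.5% of tested genes did. Tap1, a subunit of the transporter that brings peptides to MHC class I, stood at 70.7, 199 and 57.5 CPM in PM, against 43.6 and 39.6 CPM in PBS. Its log2 fold was 1.38 ± 0.74 SE with all libraries (adjusted p = 0.536, edgeR, Benjamini-Hochberg) and 0.62 without PM replicate 2 (adjusted p = 0.0971, edgeR, Benjamini-Hochberg). Psmb8, a catalytic subunit of the immunoproteasome, stood at 130, 225 and 97.5 CPM in PM, against 85.8 and 90.4 CPM in PBS. Psmb9, another such subunit, stood at 47.7, 92.9 and 52.0 CPM in PM, against 46.1 and 45.6 CPM in PBS. Psmb9 and Tap1 start from overlapping promoter windows on opposite strands of chromosome 17, and 5.79% of the exon bases of Psmb9 overlap exons of Tap1.

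The layers of the pathway above these genes had lower median ratios of PM replicate 2 to the other PM libraries than the 2.80 of the members. Of 21 interferon genes listed, 18 had 0 counts in all libraries, including Ifnb1 and every interferon alpha gene listed, which allows up to 0.348 to 0.430 CPM in each library. Interferon gamma, Ifng, had 0, 6 and 1 counts in PM replicates 1, 2 and 3 and 0 in both PBS libraries. The other 2 with any count, Ifnk and Ifnz, had 1 count each, in PM replicate 2 and PBS replicate 1. The 6 receptor genes had a median ratio of PM replicate 2 to the other PM libraries of 1.02 and ranged from 0.876 to 1.31. Ifngr1 stood at 143, 134 and 147 CPM in PM, against 168 and 151 CPM in PBS. Ifnar2 stood at 98.4, 122 and 87.6 CPM in PM, against 122 and 114 CPM in PBS.

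Among 9 genes of receptor signalling the median ratio was also 1.02, with a range of 0.814 to 2.49. Jak1, the kinase used by all interferon receptors, stood at 398, 348 and 325 CPM in PM, against 381 and 404 CPM in PBS. Ptpn11 (SHP2), a phosphatase of the pathway, stood at 83.2, 77.2 and 92.9 CPM in PM, against 103 and 97.4 CPM in PBS. PM replicate 2 was thus the lowest library for Ptpn11. The 20 genes of upstream sensing and induction had a median ratio of 1.03 and ranged from 0.709 to 2.14. PM replicate 2 was the highest library for 7 of these 20 genes, against 26.5% of tested genes. Of their most abundant members, Irf8, a factor of myeloid and B cells, stood at 119, 169 and 79.3 CPM in PM, against 88.2 and 95.8 CPM in PBS. Irak1, a kinase of Toll-like receptor signalling, stood at 118, 109 and 122 CPM in PM, against 91.9 and 93.8 CPM in PBS.

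Set beside the promoter words, the median of this ratio was 2.62 for the 18 members with an ISRE word in a window, 2.13 for the 16 whose windows lacked it and 3.10 for the 10 with no window in the table, as a description with no test.

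A further 78 interferon-induced genes outside the 44 had a median ratio of 1.47, and PM replicate 2 was the highest library for 59 of them, or 75.6%, against 26.5% of tested genes. B2m, the light chain of MHC class I, stood at 2400, 4140 and 1540 CPM in PM, against 1520 and 1610 CPM in PBS. H2-D1, an MHC class I heavy chain, stood at 2810, 4620 and 2490 CPM in PM, against 2240 and 2290 CPM in PBS. Of 107 pathway genes tested, 0 were called by edgeR (0.228% of all tested genes were). At an unadjusted p below 0.05, 20 were higher and 0 lower. The higher ones were 18.7% of the 107, where 7.26% of all tested genes were. DESeq2, which called 2.59% of all genes it tested, called 4, all higher and named after their values were seen: Unc93b1, which escorts Toll-like receptors, Ifitm1, a membrane protein that hinders viral entry, Slfn4, of the schlafen family, and Cd274 (PD-L1). Cd274 stood at 49.3, 70.1 and 29.6 CPM in PM, against 19.4 and 20.4 CPM in PBS, and Ifitm1 at 31.4, 61.3 and 62.0 CPM in PM, against 15.1 and 23.5 CPM in PBS. Unc93b1 stood at 73.2, 78.5 and 68.1 CPM in PM, against 51.8 and 48.4 CPM in PBS. In Cd274, Ifitm1 and Unc93b1 every PM library was above both PBS libraries. Their ratios of PM replicate 2 to the other PM libraries were 1.77, 1.31 and 1.11.

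**Figure D5:**
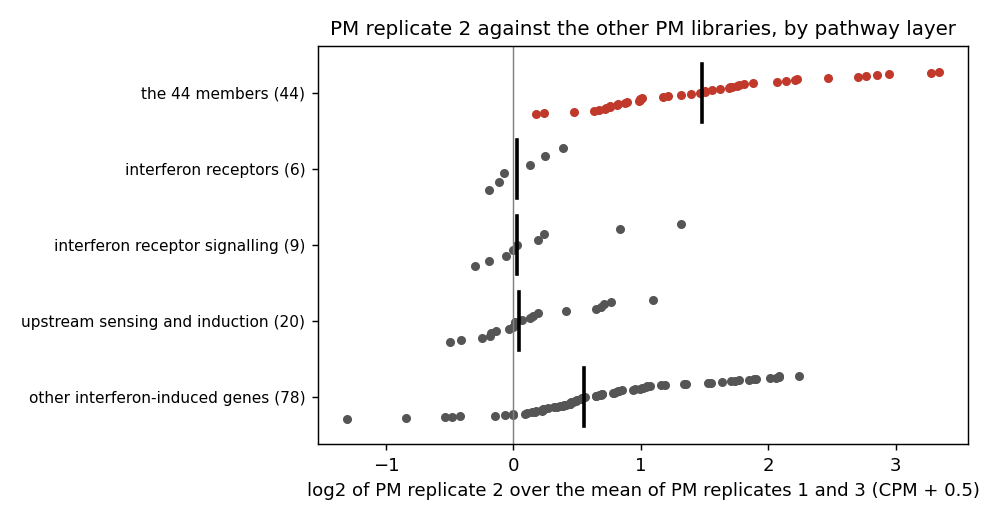
Each point is a gene, placed at log2 of PM replicate 2 over the mean of PM replicates 1 and 3 (CPM + 0.5), with black bars at the medians; red marks the 44 members. Medians are 1.48 for the members, 0.55 for other interferon-induced genes and 0.03 to 0.04 for receptors, receptor signalling and upstream genes.

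Markers of cells that respond to or make interferon are given as summed CPM over each list. Plasmacytoid dendritic cell markers (7 genes) summed to 82.4, 88.4 and 100 CPM in PM replicates 1, 2 and 3 and to 108 and 70.9 CPM in PBS, and Siglech, a defining gene of these cells, stood at 3.16, 7.02 and 1.13 CPM in PM, against 6.26 and 5.80 CPM in PBS. NK cell markers (7 genes) summed to 34.5, 28.2 and 17.2 CPM in PM, against 45.5 and 54.8 CPM in PBS. T cell markers (6 genes) summed to 65.9, 68.2 and 38.5 CPM in PM, against 35.6 and 46.9 CPM in PBS. Cox6a2 made up much of the plasmacytoid dendritic cell sum, at 31.2, 48.9 and 74.9 CPM in PM, against 70.2 and 36.9 CPM in PBS. Siglech was highest in PM replicate 2, as were 3 of the 7 genes of that list with Siglech included. Ccr9 and Ly6d of the same list were highest in PM replicate 1, at 12.4 and 29.2 CPM. Monocyte and interstitial macrophage markers (8 genes) summed to 461, 634 and 374 CPM in PM, against 306 and 288 CPM in PBS, and alveolar macrophage markers (8 genes) to 1130, 1420 and 957 CPM in PM, against 286 and 540 CPM in PBS. Both sums were highest in PM replicate 2, as were 5 of the 8 monocyte and interstitial macrophage genes but only 2 of the 8 alveolar macrophage genes. Chil3 was the largest part of the alveolar macrophage sum in PM, at 591, 1010 and 453 CPM, against 18.2 and 127 CPM in PBS. In PBS the largest part was Car4, also listed as an endothelial marker. It stood at 287, 225 and 298 CPM in PM, against 225 and 283 CPM in PBS. Marco, a scavenger receptor of alveolar macrophages, stood at 52.1, 1.72 and 55.4 CPM in PM, against 0.811 and 3.83 CPM in PBS. It was thus low in PM replicate 2. Of the monocyte and interstitial macrophage genes 2 of 8 were called by edgeR, against 0.228% of all tested genes. Neutrophil markers (6 genes) summed to 275, 197 and 945 CPM in PM, against 279 and 136 CPM in PBS, and conventional dendritic cell markers (7 genes) to 67.6, 83.4 and 68.0 CPM in PM, against 76.9 and 77.1 CPM in PBS. No listed marker was at 0 in all libraries, and the part of these cells in the levels of the members was not tested.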

How the data were processed

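Per the labels' protocols, mouse lung RNA was prepared with easy-BLUE reagent, and libraries with the Lexogen SENSE mRNA-Seq kit. TopHat, Cufflinks and the build mm10 are named in the submitters' processing notes. Tool versions, read counter, annotation and strand use are facts not given in the sources used here. What the authors deposited are whole-number read counts for each gene symbol, not normalized. A blank entry without a gene name was left out, and of repeated symbols the entry with the most counts was kept, which set aside 44 of 23282 entries (0.0251% of counts).

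The identical tables of PBS replicates 1 and 2 counted once. Counts were fitted with edgeR 4.0.16 in R 4.3.3 (filterByExpr, TMM scaling, robust quasi-likelihood test, two-sided, no covariates), with Benjamini-Hochberg adjustment over 14057 tested genes and a threshold of 0.05. Folds are PM minus PBS. The SE is |log2 fold| over the square root of F. CPM are TMM-scaled, and ratios between single libraries use CPM + 0.5. The ratio of PM replicate 2 is to the mean CPM of PM replicates 1 and 3, with 0.5 added to each side. Positions, exon lengths and shared 50-base words came from GENCODE M21 (GRCm38, the assembly of mm10), and promoters from RefSeq. The procedure was tested on simulated counts in which all PM libraries shared the same set folds. No single library deviated there, so that test does not cover a library such as PM replicate 2. DESeq2 1.42.0 and the other alternatives are given in the closing section.

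The members, role classes, pathway and marker lists and the naming rule were chosen with earlier results of these data known. By that rule, values in every library were given for members with an unadjusted p below 0.05, the most abundant 2 of each class (3 of the antiviral effectors) and the 3 highest and 3 lowest in the ratio of PM replicate 2. Values in every library for Ifi44, Rsad2, Bst2, Ifit1, Ifit2, Oasl1, Zbp1, Dhx58, Irf7, Igtp and Psmb9 were added outside this rule, after their values were seen. From each pathway list the 2 most abundant genes were named. Any other pathway gene or single marker gene was picked with its values known.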

Additional observations from a re-analysis of the deposited data

How the results depend on the processing

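The count of members called, 0, was the same under size factors of DESeq2 in edgeR, a filter of at least 10 counts in 2 libraries, non-robust estimation, removal of Rn45s and haemoglobin genes and an adjusted p of 0.10. It was 1 by DESeq2, 1 with no filter beyond 1 count and 1 with all 6 tables (Mx2 each time), and 0 to 1 when a library was left out. Over all genes 32 were called. That number was 369 by DESeq2, 275 without the filter, 635 with all 6 tables, 206 at an adjusted p of 0.10, and 1 to 427 when a library was left out. Of other pathway genes 4, 3, 7 and 1 were called under those 4 settings, and 0 to 3 when a library was left out. The median log2 fold of the members ran from 0.08 to 1.01 when a library was left out and was 0.55 with all 6 tables and 0.45 from mean log2(CPM + 0.5). The count of members at an unadjusted p below 0.05, a measure chosen after seeing the data, was 3 and ran from 1 to 18 when a library was left out, as the share over all genes also moved. The cause of these shifts was not tested.

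The replicate numbers are not shown to pair the samples: same-numbered libraries had correlations of deviations of -0.03 and 0.06. With the replicate number as a block, PM replicate 2 has no partner and drops out in effect, leaving 2 pairs and 1 residual degree of freedom. The replicate block gave 353 genes, 3 members (Mx2, Iigp1 and Tap1), 4 pathway genes, and a median of 0.06, with log2 folds turned to -0.22 for Ddx58, -0.022 for Irf9, -0.062 for Parp14 and -0.10 for Cxcl10.

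Some folds of members named by the rule changed sign under other settings. Ifih1 was at -0.0021 with all 6 tables. Leaving out a library gave ranges of -0.17 to 0.39 for Ifih1, -0.20 to 0.26 for Ddx58 and -0.15 to 0.043 for Ifi35. The range was -0.015 to 0.61 for Irf9 and -0.058 to 0.47 for Parp14. Outside that rule, larger folds also turned without PM replicate 2. Besides Rsad2, these included Ifit1 (0.66 to -0.40), Usp18 (0.40 to -0.32), Dhx58 (0.42 to -0.33), Cmpk2 (0.39 to -0.26) and Stat2 (0.22 to -0.19). Outside PM replicate 2, Mx1, Oas2, Oas3, Oasl1, Cxcl9 and Cxcl10 had 1 to 20 counts per library, so depth limits their folds and ratios.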
